A study of Mus musculus with 6 samples.

Results

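The lysosomal genes described here are 44 genes for the digestive enzymes of the lysosome, their cofactors and the proteins of its membrane. They were taken by gene name from a table of 34745 mouse genes, and each of the 44 names matched 1 row. They comprise 12 proteases, 12 glycosidases, 5 sulfatases, 6 lipid hydrolases or lipid cofactors, 7 membrane proteins, and Tfeb and Grn. RNA was sequenced from liver, with hepatocyte given as the cell type, in 3 libraries from Sox9HKO mice (HKO) and 3 from Sox9f/f mice (WT). All mice were C57BL/6 and 12 weeks old, and all had undergone PHx (partial hepatectomy, in which lobes are cut away and the remnant regrows) 48 h earlier. The f/f allele carries loxP sites around part of Sox9, and the sources used here name neither the promoter that drives its deletion in HKO nor the mouse behind each library. The p-values therefore cover only the spread among these 6 libraries, which may be technical.

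The lysosome is an acidic compartment that breaks down proteins, glycans and lipids delivered by endocytosis and autophagy. Its soluble enzymes are made in the endoplasmic reticulum and most are sorted to the lysosome by a mannose 6-phosphate tag. A proton pump, the V-ATPase, acidifies it, and heavily glycosylated membrane proteins line it. TFEB, a transcription factor of the MiT/TFE family, binds a short DNA element with the core CACGTG in promoters of many lysosomal genes. In liver, hepatocytes use lysosomes to degrade glycogen, lipoproteins and worn organelles, and Kupffer cells, the resident macrophages, are also rich in them.

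The libraries held 16659778 to 21168233 counts, and the 44 genes took 0.777%, 0.607% and 0.749% of them in HKO 1, 2 and 3, against 0.549%, 0.531% and 0.538% in WT 1, 2 and 3. Sox9 was at 6.34, 4.30 and 4.78 CPM (counts scaled to a common library size, with TMM factors) in HKO, against 6.94, 13.7 and 11.4 CPM in WT, so each HKO library lay below each WT library (log2 fold change -1.05, SE 0.27, adjusted p = 0.0284, edgeR). HKO 2 stood apart from the other HKO libraries on the second principal component. Mitochondrial genes took 25.9% of its counts, against 12.1% to 16.3% elsewhere. All 44 lysosomal genes passed the filter on low counts, with at least 21 counts in each library. In such bulk samples, fewer cells of a type and less RNA per cell cannot be told apart.

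Many lysosomal genes were higher in HKO and none was called lower. Of the 44, 24 rose at an adjusted p below 0.05 (edgeR's quasi-likelihood test, adjusted over all 12556 genes tested), 20 did not pass and 0 fell. Among all genes tested 23.2% were called, made up of 12.1% higher and 11.2% lower in HKO. The median log2 fold change of the 44 genes, HKO over WT, was 0.48, where that of all tested genes was 0.02. Fold changes of the 24 called genes ran from 0.34 to 1.15 on the log2 scale, and 5 of them were at least doubled. Of the other 20, 14 had a positive and 6 a negative fold change. In 27 of the 44 genes every HKO library lay above every WT library, and in 0 every one lay below. Over all genes tested, 22.6% had all HKO values above all WT values and 21.6% had them below.

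The calls depended on single libraries in part. Without WT 3, 15 of the 44 were called higher, 16 without WT 2, and 17 without WT 1, HKO 1 or HKO 3. Without HKO 2, all 24 were again called. In 15 of the 24 genes the call held with any 1 library left out. The other 9 were Ctsb, Ctsd, Ctsh, Glb1, Neu1, Fuca1, Npc2, Lamp1 and Cln3, whose adjusted p went up to at most 0.161 in one of these fits.

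**Figure D1:**
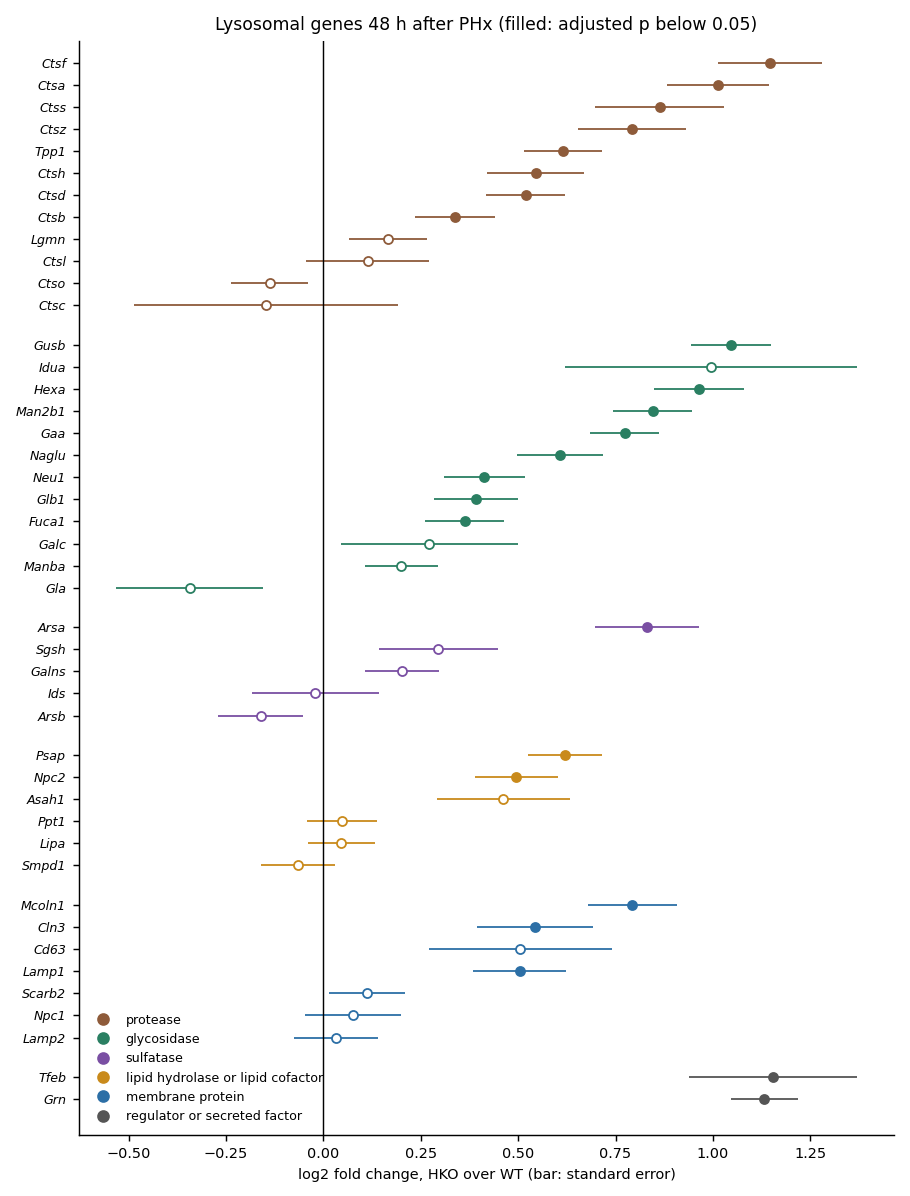
Log2 fold change of each lysosomal gene, HKO over WT, with its standard error as a bar, grouped by role; filled points passed an adjusted p of 0.05 in edgeR's quasi-likelihood test over all genes. The 24 filled points lie between 0.34 and 1.15, and no gene is called on the negative side.

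Promoters of the lysosomal genes often held the core letters CACGTG. RefSeq promoter windows (250 bases before to 50 after each start, GRCm38.p6) were matched by symbol for 39 of the 44 genes, and Ctsb, Ctsh, Galns, Npc1 and Asah1 had no entry. CACGTG, which reads the same on both strands, occurred in at least 1 window of 14 of the 39 genes (35.9%), against 8.09% of 27025 genes in the promoter table. Of the genes called higher 10 of 22 had it (45.5%), and of those not called 4 of 17 (23.5%), a difference that was not tested. The longer TCACGTG, searched on both strands and always containing the shorter motif, was found for 12 of the 39 genes (30.8%), against 4.29% of all genes. These matches describe the letters and were not tested for binding. Matches near an annotated start also occurred in genes not called, at position -29 in Sgsh and -49 in Lgmn. Some called genes with such a match, Glb1 (position -48) among them, are not printed. The 6 sequences below come from called genes with a match near the start, each 150 bases before and 30 bases from the annotated start, 5′ to 3′ on the gene's strand, with CACGTG in capitals.
Lamp1, chr8:13159011-13159190, plus strand: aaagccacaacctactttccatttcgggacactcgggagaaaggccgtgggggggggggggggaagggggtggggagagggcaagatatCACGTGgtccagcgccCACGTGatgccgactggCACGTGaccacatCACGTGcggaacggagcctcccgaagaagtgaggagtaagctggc
Mcoln1, chr8:3500369-3500548, plus strand: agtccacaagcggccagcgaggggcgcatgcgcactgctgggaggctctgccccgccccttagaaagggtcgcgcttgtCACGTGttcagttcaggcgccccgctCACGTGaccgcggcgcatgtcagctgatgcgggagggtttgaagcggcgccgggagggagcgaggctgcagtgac
Ctsa, chr2:164833623-164833802, plus strand: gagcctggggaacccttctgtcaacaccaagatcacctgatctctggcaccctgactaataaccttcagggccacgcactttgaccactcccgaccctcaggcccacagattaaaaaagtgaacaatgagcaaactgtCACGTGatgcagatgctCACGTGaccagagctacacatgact
Ctsd, chr7:142387798-142387977, minus strand: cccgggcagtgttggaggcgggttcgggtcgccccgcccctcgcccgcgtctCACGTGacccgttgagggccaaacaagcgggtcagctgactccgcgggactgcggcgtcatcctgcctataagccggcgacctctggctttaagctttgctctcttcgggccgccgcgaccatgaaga
Naglu, chr11:101069944-101070123, plus strand: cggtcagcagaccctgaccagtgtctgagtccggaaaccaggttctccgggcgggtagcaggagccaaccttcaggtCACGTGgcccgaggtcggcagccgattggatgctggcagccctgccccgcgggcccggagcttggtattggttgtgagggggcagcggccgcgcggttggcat
Arsa, chr15:89477395-89477574, minus strand: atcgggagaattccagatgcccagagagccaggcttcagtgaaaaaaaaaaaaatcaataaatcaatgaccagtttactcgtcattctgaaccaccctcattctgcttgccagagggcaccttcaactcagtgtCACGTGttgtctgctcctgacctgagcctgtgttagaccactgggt
Lamp1 carried 4 copies in this window, Mcoln1 and Ctsa 2 each, and the other 3 genes 1 each. The Ctsa window belongs to the second of its RefSeq starts, and the window of its first start held none. No CACGTG lay in the windows of the other 12 called genes with an entry, Grn, Gusb, Hexa and Tfeb among them.

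Tfeb (ENSMUSG00000023990, chromosome 17, 47737030 to 47792419, plus strand) had the largest fold change of the 44 genes, at a low level. It was at 6.93, 6.46 and 5.42 CPM in HKO 1, 2 and 3, against 3.44, 2.42 and 2.56 CPM in WT 1, 2 and 3. The lowest HKO library lay above the highest WT library, and the log2 fold change was 1.15 (SE 0.22, adjusted p = 0.00858, edgeR). Grn encodes progranulin, a secreted protein that is taken into lysosomes and cut into granulins (ENSMUSG00000034708, chromosome 11, 102430315 to 102437048, plus strand). Its level was 304, 323 and 305 CPM in HKO, against 139, 147 and 139.6 CPM in WT. The HKO libraries lay close together, well clear of WT, and the log2 fold change was 1.13 (SE 0.09, adjusted p = 0.000298, edgeR). This was the smallest adjusted p of the 44 genes. Grn shares 68 exon bases with Fam171a2 on the opposite strand, which had a mean of 27.7 counts in HKO and 13.3 in WT.

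Proteases rose in 8 of 12 genes, 4 did not pass and none fell, the median log2 fold change being 0.53. Cathepsin F (Ctsf, ENSMUSG00000083282, chromosome 19, 4855129 to 4860912, plus strand), a cysteine protease, had 30.4, 22.6 and 25.6 CPM in HKO, against 12.3, 11.6 and 11.5 CPM in WT. Its groups did not overlap, and its log2 fold change of 1.15 (SE 0.13, adjusted p = 0.00135) was the largest among the proteases. Ctsa (ENSMUSG00000017760, chromosome 2, 164832873 to 164841032, plus strand) encodes a serine carboxypeptidase that also shields beta-galactosidase and neuraminidase from breakdown. It stood at 205, 147 and 190.2 CPM in HKO, against 89.8, 87.7 and 90.7 CPM in WT. WT was tight and HKO 2 was the lowest HKO library, still above all of WT (log2 fold change 1.01, SE 0.13, adjusted p = 0.00196). Ctsa shares 495 exon bases with Pltp and 324 with Neurl2 on the opposite strand, so its value is uncertain. Pltp averaged 279 counts in HKO and 153 in WT.

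Cathepsin S (Ctss), a cysteine protease abundant in antigen-presenting cells, had 21.5, 14.2 and 19.4 CPM in HKO, against 10.00, 10.1 and 10.3 CPM in WT. HKO 2 lay nearest to WT (log2 fold change 0.86, SE 0.16, adjusted p = 0.00939). Ctsz, a carboxypeptidase of the same papain-like family, was at 431, 300.3 and 373 CPM in HKO, against 214, 219.9 and 204 CPM in WT (log2 fold change 0.79, SE 0.14, adjusted p = 0.00683). Tpp1, a tripeptidyl peptidase, was at 166, 141 and 169 CPM in HKO, against 101, 107 and 103 CPM in WT (log2 fold change 0.62, adjusted p = 0.0049). In Ctss, Ctsz and Tpp1, too, the lowest HKO library exceeded the highest WT library.

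The other called proteases changed less. Ctsh, an aminopeptidase, had 316, 247 and 284 CPM in HKO, against 173, 199 and 208 CPM in WT (log2 fold change 0.54, adjusted p = 0.018). Without any 1 library other than HKO 2, its adjusted p lay between 0.0538 and 0.0592. Cathepsin D (Ctsd), the aspartic protease of the lysosome, had 451, 384 and 402 CPM in HKO, against 302, 284 and 277 CPM in WT. Its groups were clearly apart (log2 fold change 0.52, SE 0.10, adjusted p = 0.0102), and the call was lost without WT 3 (adjusted p = 0.0631). Ctsd shares 808 exon bases with Gm49369, a protein-coding gene on the same strand. Gm49369 is not among the genes counted, so its part in the Ctsd value is not known. Cathepsin B (Ctsb) was at 737, 629 and 701 CPM in HKO, against 542, 544 and 548 CPM in WT (log2 fold change 0.34, SE 0.10, adjusted p = 0.0492). It passed the threshold narrowly and lost the call with RLE scaling (adjusted p = 0.0592) and in each fit that omitted 1 library other than HKO 2 (adjusted p from 0.111 to 0.161). Ctsb shares 774 exon bases with Fdft1 on the opposite strand, which averaged 589 counts in HKO and 1017 in WT.

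Among the proteases that did not pass, Ctsl had the highest level. It stood at 953, 676 and 857 CPM in HKO, against 666, 834 and 799 CPM in WT (log2 fold change 0.11, SE 0.16, adjusted p = 0.636). HKO 1 and HKO 3 lay above all WT libraries, HKO 2 within the WT range and WT 1 below all HKO libraries. Ctsl shares 1742 exon bases with the antisense gene Gm47123 and 395 with the same-strand pseudogene Gm49230. Ctsc, which activates serine proteases of immune cells, had 99.8, 81.3 and 93.8 CPM in HKO, against 47.6, 142 and 115 CPM in WT. WT 1 was far below the other WT libraries (log2 fold change -0.15, SE 0.34, adjusted p = 0.782). Leaving WT 1 out gave -0.50 (adjusted p = 0.0496), the only negative call among the 44 genes in any fit run. Lgmn, which encodes legumain, an endopeptidase that cuts after asparagine, gave 0.17 and Ctso -0.14. Without WT 3, 5 proteases were called higher.

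**Figure D2:**
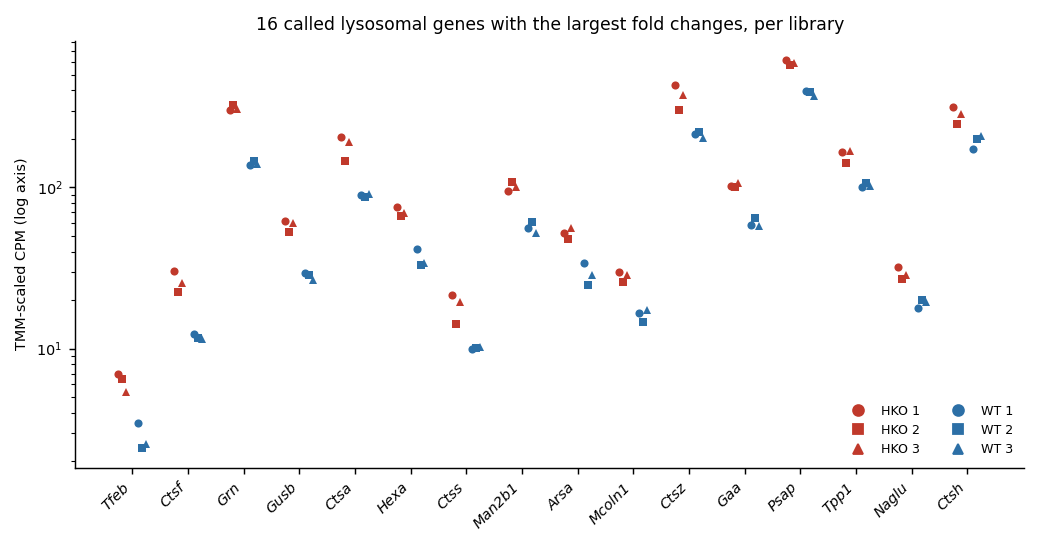
TMM-scaled CPM on a log axis for the 16 called genes with the largest fold changes, 1 point per library, HKO left of WT for each gene. All 3 HKO points lie above all 3 WT points for each of the 16 genes, and HKO 2 (squares) is often the lowest HKO point.

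Glycosidases, which cut sugars from glycoproteins, glycolipids and glycogen, rose in 8 of 12 genes and fell in none, the median log2 fold change being 0.51. Beta-glucuronidase (Gusb, ENSMUSG00000025534, chromosome 5, 129989011 to 130003049, minus strand) had 61.8, 52.8 and 60.6 CPM in HKO, against 29.3, 28.8 and 26.7 CPM in WT. The groups were widely apart (log2 fold change 1.05, SE 0.10, adjusted p = 0.000651). Hexa (ENSMUSG00000025232, chromosome 9, 59539667 to 59565105, plus strand), the alpha subunit of beta-hexosaminidase, had 76.0, 66.7 and 69.5 CPM in HKO, against 41.4, 33.3 and 34.0 CPM in WT (log2 fold change 0.96, adjusted p = 0.00144). Hexa shares 255 exon bases with Tmem202 on the opposite strand, which averaged 0 counts in HKO and 0.333 in WT. Man2b1, an alpha-mannosidase, was at 94.7, 109 and 101 CPM in HKO, against 56.1, 60.9 and 52.1 CPM in WT (log2 fold change 0.85, adjusted p = 0.00141). Here HKO 2 was the highest HKO library.

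Gaa, the acid alpha-glucosidase that degrades glycogen in lysosomes, had 102, 100.02 and 106 CPM in HKO, against 58.1, 64.5 and 58.1 CPM in WT. The 3 HKO libraries were nearly level and clear of WT (log2 fold change 0.77, SE 0.09, adjusted p = 0.0013). Naglu, which removes N-acetylglucosamine from heparan sulfate, had 31.9, 27.0 and 28.8 CPM in HKO, against 17.8, 20.2 and 19.6 CPM in WT (log2 fold change 0.61, adjusted p = 0.00797). The remaining calls were small. Neu1 (a sialidase), Glb1 (beta-galactosidase) and Fuca1 (a fucosidase) rose by 0.41, 0.39 and 0.36 on the log2 scale, and all 3 lost the call without any library but HKO 2. Hence 5 glycosidases were called without HKO 1, HKO 3, WT 1, WT 2 or WT 3. Glb1 shares 165 exon bases with Tmppe on the same strand.

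Of the glycosidases that did not pass, Idua, which acts on heparan and dermatan sulfate, had a fold change within the range of the called genes but few counts. It stood at 3.12, 4.42 and 2.23 CPM in HKO, against 1.22, 2.36 and 1.28 CPM in WT (1.99-fold, SE 0.37 on the log2 scale, adjusted p = 0.0912), and HKO 3 lay below WT 2. Idua had 21 to 76 counts per library and shares exon bases on the opposite strand with Slc26a1 (141 bases, mean 2738 counts in HKO and 3233 in WT) and Dgkq (124 bases, mean 267 counts in HKO and 206 in WT), so its value is uncertain. Galc and Manba gave 0.27 and 0.20. Gla, an alpha-galactosidase, had the lowest fold change of the 44 genes, -0.34, with 8.004, 9.30 and 5.83 CPM in HKO, against 10.5, 9.27 and 9.52 CPM in WT (adjusted p = 0.221).

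Sulfatases remove sulfate groups from glycosaminoglycans and sulfatides. Of 5 genes, 1 rose (20.0%, against 12.1% of all genes tested) and none fell, the median log2 fold change being 0.20. Arsa (ENSMUSG00000022620, chromosome 15, 89472476 to 89477425, minus strand), the arylsulfatase that degrades sulfatide, had 51.9, 47.7 and 56.1 CPM in HKO, against 34.0, 25.0 and 28.6 CPM in WT. The groups did not overlap (log2 fold change 0.83, SE 0.13, adjusted p = 0.00478). Arsa shares 690 exon bases with the antisense gene C230037L18Rik, which had a mean of 4.33 counts in HKO and 3.33 in WT. Sgsh, Galns, Ids and Arsb did not pass, with log2 fold changes of 0.30, 0.20, -0.02 and -0.16.

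The hydrolases placed in the lipid class of 6 did not pass the test. Both genes of this class that rose encode cofactors or carriers (median log2 fold change 0.25). Arsa, which also acts on a lipid and rose, was counted with the sulfatases. Enzymes that cut sugars from glycolipids, Hexa among them, were counted with the glycosidases, and Hexa rose too. The result for this class therefore does not cover all lipid-degrading enzymes of the lysosome. Psap (ENSMUSG00000004207, chromosome 10, 60277627 to 60302597, plus strand) encodes prosaposin, the precursor of the saposins that present sphingolipids to their hydrolases. Its level was 617, 574 and 594 CPM in HKO, against 399, 391 and 371 CPM in WT, with no overlap (log2 fold change 0.62, SE 0.09, adjusted p = 0.00377). Npc2, which carries cholesterol inside the lysosome, rose by 0.49 on the log2 scale (adjusted p = 0.0146), and this call was lost without WT 2 or WT 3, leaving 1 gene of the class. Lipa, which splits cholesteryl esters and triglycerides, had 211, 225 and 229 CPM in HKO, against 215, 209 and 220.1 CPM in WT, and the values interleaved (log2 fold change 0.05, SE 0.09, adjusted p = 0.732). Smpd1, an acid sphingomyelinase, and Ppt1, a palmitoyl-protein thioesterase, gave -0.07 and 0.05. The acid ceramidase gene Asah1 gave 0.46 (SE 0.17, adjusted p = 0.0869), and its HKO values lay above its WT values.

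Membrane proteins rose in 3 of 7 genes and fell in none, the median log2 fold change being 0.50. Mcoln1 (ENSMUSG00000004567, chromosome 8, 3500457 to 3515232, plus strand) encodes a cation channel that releases calcium from the lysosome. It had 29.8, 25.8 and 28.5 CPM in HKO, against 16.6, 14.7 and 17.3 CPM in WT, without overlap (log2 fold change 0.79, SE 0.11, adjusted p = 0.00305). Lamp1 (ENSMUSG00000031447, chromosome 8, 13159135 to 13175338, plus strand), a main glycoprotein of the lysosomal membrane, was at 1001, 790.4 and 924 CPM in HKO, against 613, 661 and 641 CPM in WT. The groups did not overlap (log2 fold change 0.50, SE 0.12, adjusted p = 0.0216), but the call was lost without any library other than HKO 2 (adjusted p from 0.0619 to 0.0936). Lamp1 shares 249 exon bases with Grtp1 on the opposite strand, which averaged 245 counts in HKO and 253 in WT. Its relative Lamp2 was at 563, 537 and 598 CPM in HKO, against 521, 529 and 610.0 CPM in WT, with overlap (log2 fold change 0.03, SE 0.11, adjusted p = 0.855). Whether Lamp1 and Lamp2 differ in response was not tested.

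Cln3, a lysosomal membrane protein lost in a childhood storage disease, rose by 0.54 on the log2 scale (adjusted p = 0.0347). This call, like that of Lamp1, held only without HKO 2 among the fits with 1 library left out, so 1 membrane protein gene was called in each of the other 5. Cln3 shares 442 exon bases with Apobr on the opposite strand. Npc1, the cholesterol transporter of the lysosomal membrane, and Scarb2, the receptor that brings glucocerebrosidase to the lysosome, gave 0.08 and 0.11. The tetraspanin gene Cd63 gave 0.51 with a wide error (SE 0.23, adjusted p = 0.154). Differences in the share of called genes between the classes were not tested.

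Levels were compared between genes with the deposited FPKM, which divide fragments by transcript length and depth. Ctsl was the most abundant, at 423 ± 91.3 FPKM in HKO and 387 ± 26.7 FPKM in WT (SD, n = 3 here and below), and did not differ from Lamp1 in HKO beyond its spread (403 ± 66.7 FPKM). Next came Ctsz, at 257 ± 57.1 FPKM in HKO and 148 ± 9.21 FPKM in WT. Psap was at 149 ± 12.9 FPKM in HKO and 97.2 ± 7.63 in WT, and Ctsb at 146 ± 18.9 FPKM in HKO and 115 ± 5.30 in WT. Psap and Ctsb overlapped in HKO, while in WT all 3 Ctsb values lay above all 3 Psap values. At the low end, Idua was at 0.386 ± 0.109 FPKM in HKO and 0.193 ± 0.0688 in WT, and Tfeb at 0.679 ± 0.0835 FPKM in HKO and 0.307 ± 0.0771 in WT. Called genes were found among both the abundant and the scarce members.

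**Figure D3:**
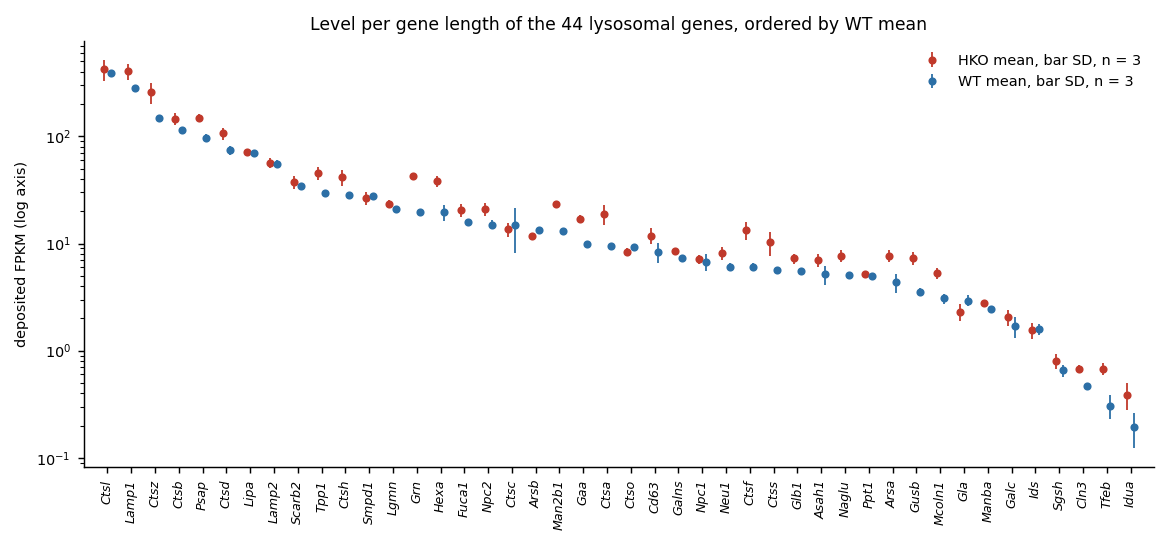
Deposited FPKM on a log axis for the 44 lysosomal genes in order of their WT mean, as group mean with SD (n = 3), HKO left of WT. Ctsl, Lamp1 and Ctsz lead in both groups, and the HKO mean is the higher one in 38 genes.

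The libraries of HKO differed in how far the genes lay from WT. The median over the 44 genes of log2 (CPM + 0.5) relative to the WT mean was 0.54, 0.36 and 0.44 in HKO 1, 2 and 3. HKO 2 was the lowest HKO library in 21 of the 24 called genes and in 7 of the 20 others. In all 24 called genes it still lay above all 3 WT libraries. Summed over the proteases, the level was 3542, 2765 and 3232 CPM in HKO, against 2271, 2569.8 and 2485 CPM in WT. For the glycosidases the sum was 581, 545 and 557 CPM in HKO, against 361, 369.8 and 346 CPM in WT. HKO 2 was thus set apart in the protease sum and hardly in the glycosidase sum. Such sums weigh abundant genes most. Ctsl, which was not called, had 953, 676 and 857 CPM in HKO 1, 2 and 3. Man2b1, an abundant glycosidase gene, was highest in HKO 2. Across the 44 genes the median coefficient of variation of CPM was 9.16% in HKO and 6.18% in WT, and the widest were Idua in HKO (33.8%) and Ctsc in WT (47.8%).

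Other genes of the pathway were taken from 5 lists with 99 genes, 97 of them tested. Among them 29 (29.9%) rose and 4 (4.12%) fell, where 12.1% of all genes tested were called higher and 11.2% lower. The median log2 fold change was 0.30. The numbers called higher were 17, 17, 15, 14 and 15 without HKO 1, HKO 3, WT 1, WT 2 and WT 3. V-ATPase genes made up the largest part, with 12 of 18 higher and 1 lower (median 0.43). Atp6v1e1, a stalk subunit, had 134, 110.3 and 123 CPM in HKO, against 77.3, 76.3 and 76.2 CPM in WT (log2 fold change 0.67, adjusted p = 0.0033). Atp6v0a2, a membrane subunit, rose with 0.68 (adjusted p = 0.0169). Atp6v0d2, a subunit that in mice is high in osteoclasts and macrophages, fell, with 1.18, 3.95 and 0.729 CPM in HKO, against 11.7, 7.25 and 10.5 CPM in WT (log2 fold change -2.35, SE 0.54, adjusted p = 0.0195). This call was lost without HKO 1, WT 1 or WT 3 (adjusted p = 0.0636, 0.0522 and 0.0688), and that of Atp6v0a2 without any library but HKO 2. The count of V-ATPase genes called higher was 7 without HKO 1 or HKO 3 and 5 without any 1 WT library.

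Of 26 tested further hydrolases and cofactors, 7 (26.9%) rose and 1 (3.85%) fell (median log2 fold change 0.24). Gm2a, the cofactor that presents ganglioside to beta-hexosaminidase, fell, with 78.4, 80.8 and 73.3 CPM in HKO, against 176, 142 and 155 CPM in WT (log2 fold change -1.03, adjusted p = 0.000858). Hexa and Gm2a, whose products work together, thus changed in opposite directions.

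Sorting and maturation genes gave 3 higher (21.4%) and 1 lower (7.14%) of 14 (median 0.26). Cln6 and Cln8, which act in the endoplasmic reticulum in the export of lysosomal enzymes, rose by 1.28 and 0.79 on the log2 scale (adjusted p = 0.00568 and 0.00306). The adaptor gene Gga2 rose with 0.58 (adjusted p = 0.0223, and 0.0653 to 0.0798 without HKO 1, HKO 3, WT 1 or WT 2). The 1 that fell was the mannose 6-phosphate receptor gene M6pr, named after its value was seen, with 58.3, 61.1 and 62.3 CPM in HKO, against 78.9, 87.8 and 81.0 CPM in WT (log2 fold change -0.45, adjusted p = 0.0106). Of 22 other membrane protein genes 3 rose and 1 fell (median 0.21), and 13.6% higher is close to the 12.1% of all genes. The 3 that rose were Laptm5, Cd68 and Laptm4b, the last named after its value was seen, with log2 fold changes of 0.88, 0.72 and 0.36. Mfsd8 fell with -0.47. The calls of Laptm5, Cd68 and Mfsd8 were lost in each fit that omitted 1 library other than HKO 2, and then 0 genes of this list were called in either direction.

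In the list of MiT/TFE factors and lysosomal nutrient sensing 4 of 17 (23.5%) rose and none fell (median 0.43). Fnip2, a partner of folliculin, had 20.7, 21.4 and 23.8 CPM in HKO, against 10.1, 9.38 and 9.46 CPM in WT (log2 fold change 1.19, adjusted p = 0.000583). Rragc, a GTPase that recruits mTORC1 to the lysosome, rose with 0.62 and Mtor with 0.49 (adjusted p = 0.0116 and 0.0406). The call of Mtor was lost without HKO 3 or any 1 WT library. Leaving out any 1 WT library, 2 genes of the list were called. Tfe3, the relative of Tfeb, gave 0.05 (adjusted p = 0.759), with 26.5, 25.3 and 22.9 CPM in HKO, against 24.4, 25.0 and 22.6 CPM in WT. It is named here for comparison only.

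**Figure D4:**
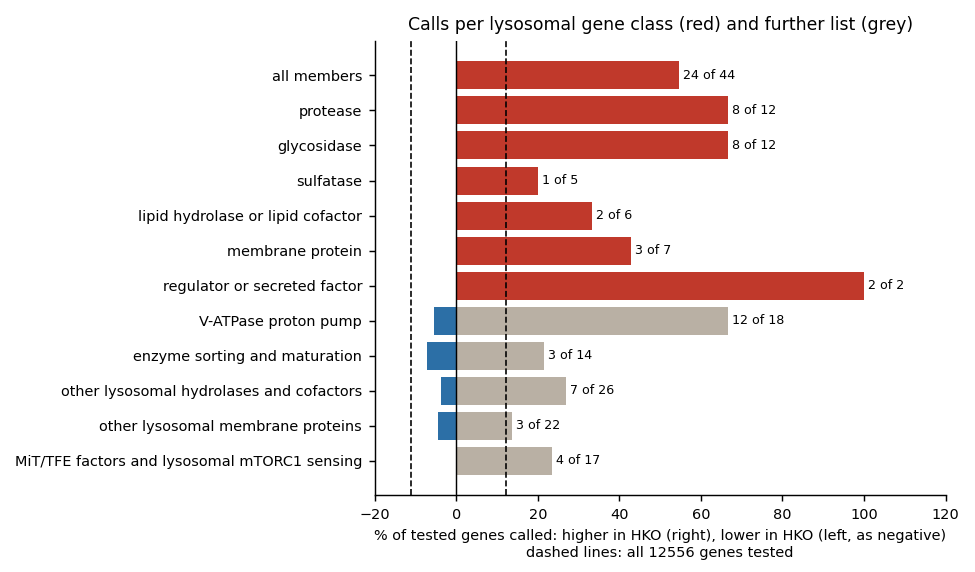
Share of tested genes called higher (right of 0) and lower (left of 0, drawn as negative) in HKO, for all 44 lysosomal genes and their classes in red and for the 5 further lists in grey, with counts beside the bars. Dashed lines mark the 12.1% and 11.2% of all 12556 genes; proteases, glycosidases and V-ATPase genes reach 66.7% higher.

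Marker lists for other cells did not all move the same way. Of 16 tested Kupffer cell and macrophage markers 13 (81.25%) rose, against 12.1% of all genes tested. Mpeg1 was the 1 that fell, and the median log2 fold change was 0.92. Adgre1, Cd163 and the Kupffer cell lectin gene Clec4f rose by 1.04, 1.29 and 0.61 on the log2 scale. The summed level of the 18 listed markers was 548, 368 and 536 CPM in HKO, against 428, 405 and 404 CPM in WT. With Mpeg1 set aside, a choice made after its values were seen, the sum was 476, 308 and 447 CPM in HKO, against 218, 214 and 206 CPM in WT. HKO 2 was the lowest HKO library in these sums, as in 21 of the 24 called lysosomal genes. It was also the lowest HKO library in the hepatocyte marker sums given below. The part of any cell type in the lysosomal values was not tested.

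Endothelial markers summed to 241, 712 and 296 CPM in HKO, against 152, 228 and 196 CPM in WT, and stellate cell markers to 155, 597 and 167 CPM in HKO, against 146, 99.0 and 111 CPM in WT. Both were far higher in HKO 2 than elsewhere, where most called lysosomal genes were at their lowest among HKO. Of these lists 2 of 13 and 3 of 10 genes rose, and none fell. Without any 1 WT library, 1 endothelial and 0 stellate markers were called. Of 12 hepatocyte markers 2 (16.7%), Cps1 and Cyp2e1, rose and none fell. This share and the endothelial one are close to the 12.1% of all genes. The hepatocyte markers had a positive fold change in 9 genes and a median log2 fold change of 0.14. They summed to 102248, 97913 and 103876 CPM in HKO, against 103013, 125836 and 112668 CPM in WT. Without Alb, the most abundant of them and set aside after its values were seen, the sum was 52487, 44733 and 52524 CPM in HKO, against 41794, 48165 and 43175 CPM in WT, and the groups overlapped. The B and plasma cell sum, mostly the immunoglobulin genes Ighm and Igkc, was 23.6, 27.3 and 20.1 CPM in HKO, against 1.11, 2.30 and 2.14 CPM in WT. Cd79a, Cd79b and Ms4a1 of the same list stayed at or below 0.183 CPM in every library and did not pass the filter on low counts. Biliary markers, mostly Spp1, summed to 24.1, 42.6 and 19.3 CPM in HKO, against 47.6, 144 and 124 CPM in WT. T and NK cell markers stayed at or below 1.10 CPM in sum and neutrophil markers at or below 4.42 CPM in every library. Sctr, Cd3d and Ly6g were at 0 in all 6 libraries.

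**Figure D5:**
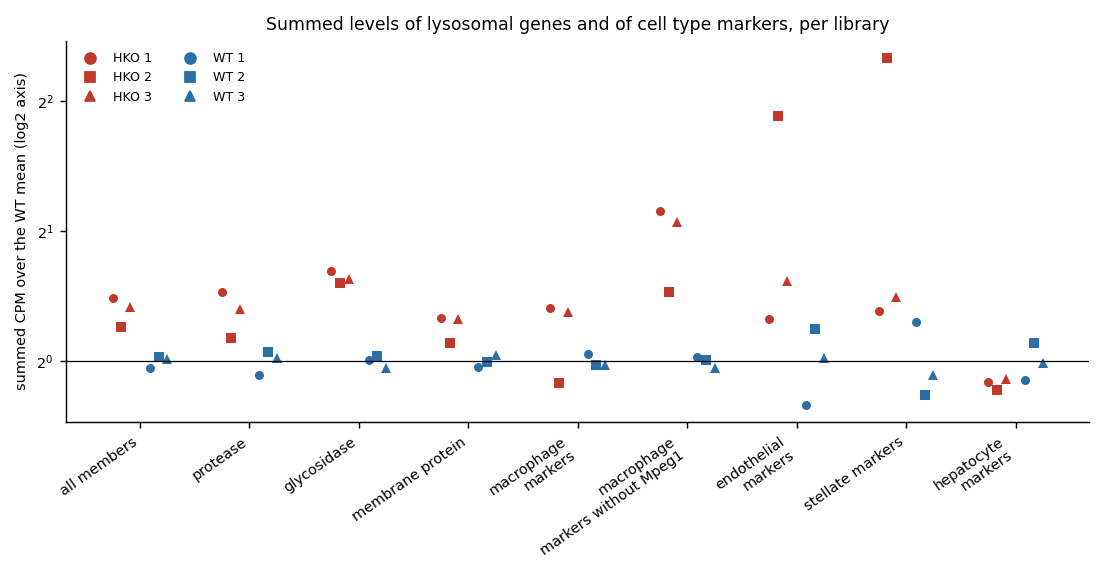
Summed CPM per library relative to the WT mean, on a log2 axis, for the lysosomal genes, 3 of their classes and markers of other cells, HKO left of WT. The lysosomal sums of all 3 HKO libraries lie above WT, the macrophage sum does so for all 3 only without Mpeg1, and HKO 2 (squares) stands far above the rest in endothelial and stellate markers.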

How the data were processed

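Per the file headers, the authors deposited raw counts and FPKM for 34745 Ensembl genes in 6 libraries, in 1 table. HISAT2 2.0.4, StringTie 1.3.0, mm10 and GRCm38.p4 are listed, per the submitters' processing notes, with neither role nor settings. No strand-marking step is described in the labels' protocols, so reads of exons shared with a gene on the opposite strand cannot be told apart. Gene coordinates are those of the table. Exon overlaps come from GENCODE M21, where 28 of the 44 genes have the same coordinates.

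The main test used edgeR 4.0.16 under R 4.3.3: filterByExpr by group (12556 genes kept), TMM scaling, and the quasi-likelihood F-test of HKO against WT without a block, adjusted by Benjamini-Hochberg over all genes tested and called below 0.05. Standard errors are the absolute log2 fold change over the square root of F. RLE scaling, no filter, DESeq2 1.42.0, limma-voom (limma 3.58.1), a replicate block and leaving out each library were tried as alternatives. The fits were tested on simulated counts. The members, their classes and the lists were chosen with earlier results of these data known. Library values were named for the 16 called members with the largest fold changes and for Tfeb, Lamp1, Ctsb, Ctsd and Ctss, with others added for comparison. From each further list the called genes with the 3 largest fold changes were named, except some that are not reported here.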

Additional observations from a re-analysis of the deposited data

How the results depend on the processing

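The replicate numbers of the labels gave no clear pairing of the libraries. Deviations from the group means of same-numbered HKO and WT libraries correlated at -0.0019, 0.0025 and 0.0717 for numbers 1, 2 and 3. Not every library correlated best with its own number, though the pair of number 3 had the highest value of all pairs. With 3 libraries per group, this cannot settle whether they were paired. With a replicate block 19 of the 44 genes were called higher and 0 lower, and 1 membrane protein gene was called. With RLE scaling, no low-count filter, DESeq2 and limma-voom the counts were 23, 20, 22 and 24 higher, and 0 lower each time. The median log2 fold change of the 44 genes lay between 0.47 and 0.48 in these 5 fits. The calls of Ctsb, Glb1, Fuca1, Lamp1 and Cln3 were lost with the block. Without the filter those of Ctsb, Glb1, Fuca1 and Cln3 were lost, with DESeq2 those of Glb1 and Cln3, and with RLE scaling that of Ctsb. DESeq2 called 2 sorting and maturation genes lower. Of the other membrane protein genes, 1 was called higher with the block, and 0 lower with the block, with no filter and with DESeq2.

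With each library left out in turn, 15 to 24 of the 44 genes were higher and 0 to 1 lower, and the median was 0.40 to 0.50. By class, 5 to 8 proteases (0 to 1 lower), 5 to 8 glycosidases, 1 to 2 genes of the lipid class and 1 to 3 membrane protein genes were higher. Over the 5 further lists 14 to 30 genes were higher and 2 to 5 lower, with 5 to 11 V-ATPase genes higher and 0 to 2 lower. Sorting and maturation genes gave 2 to 4 higher, other hydrolases 5 to 7, other membrane proteins 0 to 4 (0 to 1 lower) and MiT/TFE and nutrient sensing genes 2 to 4. Over all genes 722 to 1589 were higher and 682 to 1546 lower. Fewer libraries leave less information on the spread. No called gene named in the text changed sign in any of these fits. The lowest count of any of the 44 genes in a library was 21, which limits the precision for the scarce ones.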
